A study of Mus musculus with 8 samples.

Results

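The nuclear genes for subunits of the oxidative phosphorylation complexes were taken by gene symbol: names beginning Nduf followed by a, b, c, s or v and a number, Sdha to Sdhd, names beginning Uqcr, names beginning Cox with a number from 4 to 8 and a letter, and names beginning Atp5, without pseudogenes and Ndufaf assembly factors. The rule found 85 of the 23337 genes in the files: 37 of complex I, 4 of complex II, 8 of complex III, 19 of complex IV and 17 of complex V. Complexes were assigned by name alone, so Cox4nb (Emc8) counts under IV and Atp5sl (Dmac2) under V, though neither is a subunit of them. A filter on low counts kept 80 of the 85 for testing, among 14328 genes tested in all. Total liver RNA was sequenced from 12-week-old C57BL/6 mice with loxP sites on both copies of HRD1 (Syvn1), a ubiquitin ligase of the endoplasmic reticulum. Mice that also carried Alb-Cre, a recombinase driven by the albumin promoter and active in hepatocytes and their precursors in the developing liver, formed the KO groups, and Cre-negative mice with the same loxP alleles formed the WT groups. All were fed chow and fasted overnight, and those of the refed groups were then given food for 4 h. Each of the 4 groups (WT-Fasted, KO-Fasted, WT-Refed and KO-Refed) had 2 samples. Nothing in the labels ties each sample to 1 animal, so the p-values measure the spread between these samples.

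Oxidative phosphorylation takes place at the inner mitochondrial membrane. Complex I (NADH dehydrogenase) and complex II (succinate dehydrogenase, also an enzyme of the citric acid cycle) pass electrons to coenzyme Q, complex III passes them on to cytochrome c, and complex IV (cytochrome c oxidase) passes them to oxygen. Complexes I, III and IV pump protons, and complex V (ATP synthase) uses the proton gradient to make ATP, much of which in fasted hepatocytes goes to gluconeogenesis. All subunits of complex II are nuclear genes, whereas the other complexes also hold subunits encoded in mitochondrial DNA, and the 13 genes for those were not analysed here.

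Library totals ran from 40210576 to 49117080 counts, and levels below are normalised read counts (CPM) after trimmed-mean scaling of library sizes. Syvn1 stood at 111 and 99.8 CPM in WT-Fasted, at 32.6 and 31.5 in KO-Fasted, at 637 and 305 in WT-Refed, and at 453 and 132 in KO-Refed. The library labelled KO-Refed1 thus lay between both WT-Refed libraries, and whether these counts include exons outside the deleted part is not given in the sources used here. The 6 hepatocyte markers (Alb, Apoa1, Ttr, Serpina1a, Cps1 and Tat) were all present and summed to 102776 to 141002 CPM in WT and 61174 to 99386 CPM in KO libraries. Of 6 listed Kupffer cell and macrophage markers the 5 found in the files summed to 62.5 to 72.8 CPM in WT and 144 to 297 CPM in KO libraries, and the 5 stellate cell and fibroblast markers to 138 to 294 and 300.1 to 422 CPM. The 2 red cell markers found of 3 summed to 74.4 to 105 CPM in WT and 20.0 to 54.7 CPM in KO libraries, with Hba-a1 at 0, and the 2 neutrophil markers found of 3 to 8.33 CPM in KO-Refed2 against 0.889 to 2.66 CPM in the other libraries. The part of cell makeup in the results below was not tested. In bulk tissue, fewer cells of a type and less RNA per cell cannot be told apart. The KO-Refed2 library stood apart, with 2.19% of its counts in the 85 genes against 1.13% to 1.33% in the other 7 libraries, so the contrasts that use it are given with and without it.

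Per kilobase of transcript, the members that passed the filter spanned a wide range within every complex. The highest mean levels over all 8 libraries were those of Atp5g3, a gene for the proton-carrying c ring of ATP synthase, at 757 CPM per kb, and of Atp5b, the catalytic beta subunit, at 743 CPM per kb. These means include KO-Refed2, where Atp5g3 had a log2 ratio to the library labelled KO-Refed1 of 1.04 and Atp5b of 0.43. The order of Atp5g3 and Atp5b rests on that library. Ndufa4, a subunit first assigned to complex I and found with complex IV, led the Nduf genes at 727 CPM per kb. Cox4i1, a core-associated subunit of complex IV, stood at 640 CPM per kb, and Uqcrq, a small subunit of complex III, at 565 CPM per kb. In complex II the order was Sdhd at 218, Sdhb at 205, Sdha at 159 and Sdhc at 96.2 CPM per kb. The median level was 126 CPM per kb in complex I, 182 in II, 222 in III, 170 in IV and 193 in V. The lowest tested members were Cox6a2 at 1.02, Atp5g2 at 1.05, and Ndufa4l2 at 1.29 CPM per kb.

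Many respiratory chain genes are known to have promoters read by NRF1, whose binding site has the core GCATGCGC. RefSeq windows of GRCm38.p6, from 250 bases before to 50 bases after the start of the gene, were found for 67 of the 85 members. On either strand, the NRF1 core was in 10 of the 67 windows (14.9%), against 2.80% of 27025 windows of all genes. The other motifs searched on both strands were AAGATGGC (YY1), in 13.4% of members and 2.88% of all, TGACGTCA (CRE), in 5.97% and 1.88%, CCGGAAGT (ETS factors and GABP), in 7.46% and 4.00%, and CACGTG (E-box), in 8.96% and 7.24%. The windows below show, for each complex, the most abundant member per length that holds the NRF1 core, in the sense of the gene, with the core in capitals. In Cox6a1 and Atp5k the core overlaps itself on both strands, so the capitals run over 10 bases. These are matches of letters and were not measured as bound. Ndufa6 lies on the minus strand at chr15:82354242-82354541, Sdhb on the plus strand at chr4:140961021-140961320, Uqcr11 on the minus strand at chr10:80406772-80407071, Cox6a1 on the minus strand at chr5:115348909-115349208, and Atp5k on the minus strand at chr5:108434350-108434649.
Ndufa6: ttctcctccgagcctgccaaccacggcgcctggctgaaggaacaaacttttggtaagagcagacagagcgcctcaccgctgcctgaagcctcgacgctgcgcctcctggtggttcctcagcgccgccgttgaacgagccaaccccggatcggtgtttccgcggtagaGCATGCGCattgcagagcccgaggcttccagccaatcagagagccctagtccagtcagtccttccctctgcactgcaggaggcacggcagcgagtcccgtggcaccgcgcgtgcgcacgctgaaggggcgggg
Sdhb: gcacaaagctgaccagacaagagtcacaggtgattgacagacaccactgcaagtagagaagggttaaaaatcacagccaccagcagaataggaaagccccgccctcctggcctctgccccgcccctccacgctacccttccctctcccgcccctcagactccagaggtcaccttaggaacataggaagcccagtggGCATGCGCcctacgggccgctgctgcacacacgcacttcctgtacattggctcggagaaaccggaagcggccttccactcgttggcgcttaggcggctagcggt
Uqcr11: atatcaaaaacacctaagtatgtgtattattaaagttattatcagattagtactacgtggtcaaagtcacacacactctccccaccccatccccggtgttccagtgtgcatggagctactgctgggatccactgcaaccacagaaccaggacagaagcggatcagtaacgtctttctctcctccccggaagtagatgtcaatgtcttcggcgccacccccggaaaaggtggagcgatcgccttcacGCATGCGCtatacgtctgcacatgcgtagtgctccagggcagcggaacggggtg
Cox6a1: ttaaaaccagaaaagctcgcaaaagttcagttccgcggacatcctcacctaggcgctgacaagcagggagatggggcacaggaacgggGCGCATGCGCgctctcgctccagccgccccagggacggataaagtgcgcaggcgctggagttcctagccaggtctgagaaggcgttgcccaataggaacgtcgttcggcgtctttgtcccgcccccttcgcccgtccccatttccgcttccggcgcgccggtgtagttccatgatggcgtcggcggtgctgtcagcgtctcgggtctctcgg
Atp5k: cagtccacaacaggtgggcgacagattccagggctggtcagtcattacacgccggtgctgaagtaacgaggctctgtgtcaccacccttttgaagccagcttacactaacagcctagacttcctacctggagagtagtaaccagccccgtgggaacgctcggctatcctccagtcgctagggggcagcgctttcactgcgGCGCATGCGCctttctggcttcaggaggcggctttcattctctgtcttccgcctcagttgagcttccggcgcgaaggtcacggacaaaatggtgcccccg

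Beside these 5 windows the 5 genes had these levels. Ndufa6, an accessory subunit of complex I, stood at 132 and 155 CPM in WT-Fasted, 142 and 133 in KO-Fasted, 148 and 166 in WT-Refed, and 143 and 304 in KO-Refed. Uqcr11, a small complex III subunit, stood at 82.4 and 81.0 CPM in WT-Fasted, 68.6 and 70.9 in KO-Fasted, 86.8 and 89.5 in WT-Refed, and 70.1 and 227 in KO-Refed. Atp5k, the e subunit of ATP synthase, stood at 76.9 and 81.5 CPM in WT-Fasted, 69.0 and 60.4 in KO-Fasted, 85.2 and 92.3 in WT-Refed, and 60.2 and 225 in KO-Refed. Sdhb and Cox6a1 are given with their complexes below. In each of these 3 genes KO-Refed2 was the highest of the 8 libraries.

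Summed over its members, each of the 5 complexes was lower in both KO-Fasted than in both WT-Fasted libraries. Complex I summed to 3384 and 3796 CPM in WT-Fasted, 3271 and 3125 in KO-Fasted, 3618 and 3779 in WT-Refed, and 3126 and 7169 in KO-Refed. Complex V summed to 4904 and 5531 CPM in WT-Fasted, 4402 and 4161 in KO-Fasted, 4792 and 4710 in WT-Refed, and 3920 and 6867 in KO-Refed. In both, the fasted KO libraries lay below the fasted WT libraries, the library labelled KO-Refed1 lay below both WT-Refed libraries, and KO-Refed2 lay above every other library. The fasted order, and that of the library labelled KO-Refed1 against WT-Refed, turned with the scaling. As a plain share of all counts the 85 genes made up 1.13% and 1.21% in WT-Fasted and 1.32% and 1.27% in KO-Fasted. In WT-Refed they made up 1.25% and 1.26%, against 1.33% in the library labelled KO-Refed1 and 2.19% in KO-Refed2. The sum in KO-Refed2 was 2.29 times that in the library labelled KO-Refed1 in complex I, 1.43 times in II, 2.13 times in III, 2.37 times in IV and 1.75 times in V.

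**Figure D1:**
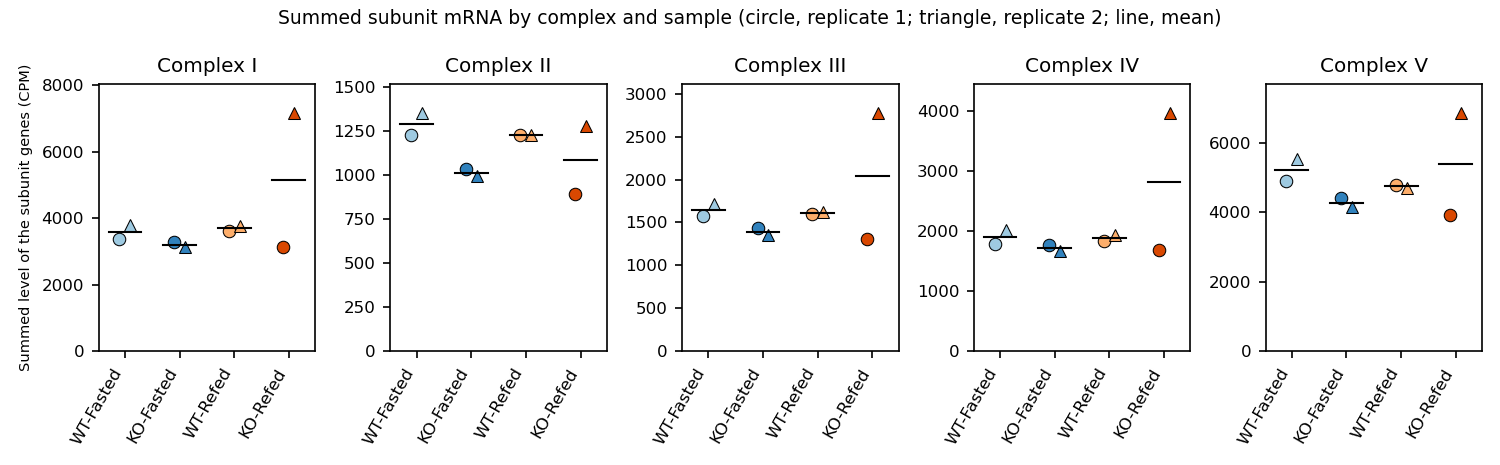
Summed CPM of the members of each complex in each of the 8 libraries, 1 point a library (circle, replicate 1, triangle, replicate 2, line, mean), with the y axes from 0, the 4 groups along the x axes and trimmed-mean scaling. Over all members together, this scaling sets the order of the fasted groups, and of the library labelled KO-Refed1 against WT-Refed. The KO-Refed2 point is the highest in complexes I, III, IV and V, and in complex II it lies at 1279 CPM, within the 1227 to 1353 CPM of the WT libraries.

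The KO-Refed pair was compared library by library before any contrast between groups. The log2 ratio of KO-Refed2 to the library labelled KO-Refed1 had a median of 1.21 over the 80 tested members, against -0.07 over all tested genes, and it was above 0 in 78 members. It was above 1 in 54 of the 80 members, where 6.25% of all tested genes passed that value. The same ratio within the other groups had a median of 0.16 in WT-Fasted, -0.08 in KO-Fasted and 0.06 in WT-Refed, with 0 members above 1. By complex the median KO-Refed ratio was 1.25 in I, 0.55 in II, 1.25 in III, 1.25 in IV and 1.04 in V.

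The members furthest apart within the KO-Refed pair were short. Atp5e, the epsilon subunit of ATP synthase, with a transcript of 421 bases, went from 108 CPM in the library labelled KO-Refed1 to 435 CPM in KO-Refed2. After it came Atp5k at a log2 ratio of 1.89, Ndufa2 at 1.84, Ndufb7 at 1.78 and Atp5j2 at 1.70. At the other end, Ndufs1, a core iron-sulfur subunit of complex I, stood at 123 and 114 CPM, and Uqcrc2, a core protein of complex III, at 224 and 222 CPM. Sdha, the longest tested member at 2900 bases, had a log2 ratio of 0.14, and the low members Cox6a2 and Atp5g2 had 0.17 and 0.11.

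Transcript length moved with this ratio in the members and in the genome at large. The median transcript length of the tested members was 751 bases against 2606 for all tested genes, and 52 of the 80 members were under 1000 bases against 9.15% of all. Spearman's rho of the ratio with length was -0.56 over the 80 members and -0.60 over 14178 genes, as a description over genes of the same 2 libraries. Among the 40 members of 501 to 1000 bases the median ratio was 1.28, against 0.78 in the 1076 other genes of that length. In the 12 members of up to 500 bases it was 1.40 against 0.48 in 171 others, and in the 7 members of 2001 to 3000 bases 0.59 against -0.05 in 3498 others. The median of the members lay above that of other genes in each of these bins. The part of transcript length in the values of KO-Refed2 was not tested beyond this.

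**Figure D2:**
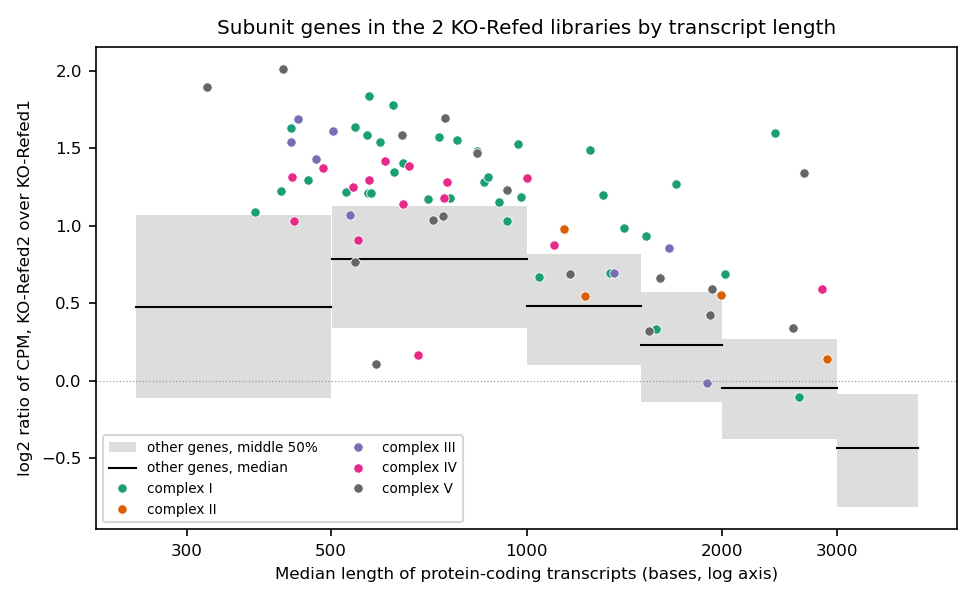
Log2 ratio of CPM in KO-Refed2 over the library labelled KO-Refed1 (y axis) against transcript length in bases (x axis), 1 point a member. The grey boxes span the middle 50% of other tested genes in each length bin with a line at their median, and in the bin of 501 to 1000 bases the members' median of 1.28 lies above the others' 0.78.

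In fasted liver, no subunit gene passed the test between KO and WT, while the levels of most were a little lower in KO. The edgeR quasi-likelihood test with Benjamini-Hochberg adjustment over all tested genes called 0 of 80 members higher and 0 lower at an adjusted p of 0.05, where 0.921% of all genes were called higher and 0.433% lower. At an unadjusted p under 0.05 there were 2 of the 80 members, Sdha and Cox6a2, against 2630 of all 14328 tested genes. DESeq2 called Cox6a2 higher and Sdha lower, where it called 4.41% of all genes higher and 3.22% lower. The limma test called 0 members, where it called 1.20% and 0.614% of all genes. The median log2 fold change of the members was -0.18, against -0.02 over all tested genes, and 16 of the 80 were above 0. Both KO-Fasted libraries lay below both WT-Fasted libraries in 46 members and above both in 5, where 34.2% and 30.6% of all genes did so, on the same scaling. The 46 were 20 of 36 in complex I, 3 of 4 in II, 5 of 8 in III, 7 of 15 in IV and 11 of 17 in V. The sign of this median rests on the scaling: by total counts alone it was 0.20, with the median of all genes at 0.36, so the members lay below the median of all genes either way. Its size rests on WT-Fasted2, without which it was -0.044, against 0.0051 over all genes.

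The fasted contrast was sharper when 1 refed KO library was left out of the joint fit, since the spread is estimated over all groups. Without KO-Refed2, edgeR called 1 member higher (Cox6a2) and 4 lower, where 9.66% of all 14642 tested genes were called higher and 11.6% lower. The 4 lower members were Sdha (log2 fold change -0.58, SE 0.09, adjusted p = 0.0100), Uqcrc1 (-0.42, SE 0.09, adjusted p = 0.0229), Ndufa1 and Uqcrc2. Uqcrc1 and Uqcrc2 are the large core proteins of complex III, and Ndufa1 is a small membrane subunit of complex I. Uqcrc1 stood at 295 and 318 CPM in WT-Fasted, 232 and 227 in KO-Fasted, 300 and 279 in WT-Refed, and 214 and 387 in KO-Refed. Uqcrc2 stood at 309 and 317 CPM in WT-Fasted, 263 and 236 in KO-Fasted, 299 and 296 in WT-Refed, and 224 and 222 in KO-Refed. On the trimmed-mean scaling, both genes were lower in both fasted KO libraries than in any WT library, and Uqcrc2 was so in the refed KO libraries as well. By total counts alone this order was not kept in Uqcrc2. With all libraries, the fasted member median was 0.20 on that scaling, so lower values in this contrast depend on it. A like fit without the library labelled KO-Refed1 also called Sdha, Uqcrc1, Ndufa1 and Uqcrc2 lower and Cox6a2 higher, where 11.8% and 9.84% of all genes were called.

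In refed liver, the result for the subunit genes turned on which KO library was used. With all libraries, edgeR called 1 of 80 members higher, Cox6a2, and 0 lower, where 7.09% of all genes were called higher and 4.84% lower. The median log2 fold change of the members was 0.51 against 0.04 over all genes. At an unadjusted p under 0.05 there were 7 of the 80 members, against 4775 of all 14328 tested genes. DESeq2 called 3 higher (Cox6a2, Cox6b2 and Cox7a2l) and 2 lower (Sdha and Uqcrc2), where it called 11.9% and 10.4% of all genes. The limma test called 1 higher, Cox6a2, and 0 lower, where it called 6.76% and 5.35% of all genes. Both KO libraries lay above both WT libraries in 4 members and below both in 4, where 30.7% and 30.1% of all genes did so. By complex the median was 0.56 in I, -0.18 in II, 0.44 in III, 0.53 in IV and 0.25 in V.

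Without KO-Refed2 the median of the members was -0.28, against 0.00 for all genes, and edgeR called 16 members lower and 1 higher, where 11.7% and 11.9% of all genes were called. In that fit the KO-Refed group is 1 library, the one labelled KO-Refed1, which is assumed to vary like the other groups. The lower members were 5 of complex I, 2 of II, 3 of III, 3 of IV and 3 of V. They were led by Ndufb3 of complex I (log2 fold change -0.66, SE 0.11, adjusted p = 0.00866), Sdha (-0.58, SE 0.12, adjusted p = 0.0155) and Atp5k (-0.56, SE 0.13, adjusted p = 0.0211). Next came Ndufa10 at -0.49, Atp5sl (counted under V by its name) at -0.54 and Sdhd at -0.55 on the log2 scale. Ndufb3 stood at 56.2 and 51.5 CPM in WT-Refed and at 34.3 CPM in the library labelled KO-Refed1, against 78.1 CPM in KO-Refed2. In this fit, on the trimmed-mean scaling, 65 of the 80 members were below 0 in both the fasted and the refed contrast, against 37.0% of all genes.

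Without the library labelled KO-Refed1, which leaves KO-Refed2 alone, edgeR called 65 members higher and 3 lower, where 25.0% and 27.8% of all genes were called. The median of the members was then 1.02. The 3 lower members were Sdha, Uqcrc2 and Ndufs1. A correction for transcript length over all genes, with both libraries kept, gave 1 member higher and 3 lower (Sdhd, Uqcrb and Uqcrc2), where 8.91% and 11.0% of all genes were called, and the median was -0.12 against -0.06 for all genes.

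**Figure D3:**
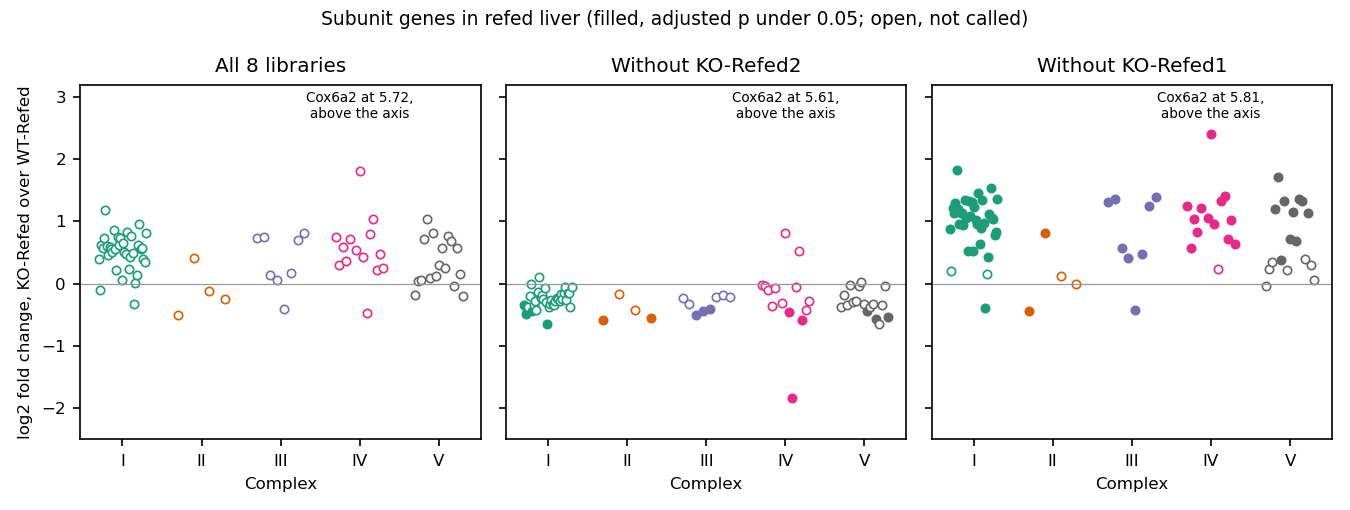
Log2 fold change of KO-Refed over WT-Refed (y axis) for the 80 tested members by complex (x axis), from the fit with all 8 libraries and from the fits without KO-Refed2 and without the library labelled KO-Refed1 (filled points, adjusted p under 0.05, open points, not called). The members' median is 0.51 with all libraries, -0.28 without KO-Refed2 and 1.02 without the library labelled KO-Refed1, and Cox6a2 lies above the axis.

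Within complex II, the genes kept different distances from WT. Sdha, the flavoprotein that oxidises succinate (chr13:74322254-74350280 in GRCm38, minus strand), stood at 552 and 577 CPM in WT-Fasted, 379 and 379 in KO-Fasted, 541 and 512 in WT-Refed, and 353 and 389 in KO-Refed. All 4 KO libraries lay below all 4 WT libraries. Its log2 fold change was -0.57 (SE 0.15, adjusted p = 0.107) in fasted and -0.50 (SE 0.15, adjusted p = 0.0664) in refed liver by edgeR with all libraries, short of the threshold. By total-count scaling these were -0.19 and -0.29, so its direction did not turn. It passed in both contrasts without either refed KO library, and by DESeq2 at an adjusted p of 0.00632 and 0.0116.

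Sdhb, the iron-sulfur subunit, stood at 204 and 215 CPM in WT-Fasted, 221 and 202 in KO-Fasted, 217 and 226 in WT-Refed, and 198 and 389 in KO-Refed. Its groups overlapped in both contrasts, with log2 fold changes of 0.01 (SE 0.29) and 0.40 (SE 0.29). Sdhc and Sdhd are the membrane anchors of the complex. Sdhc stood at 192 and 224 CPM in WT-Fasted, 176 and 170 in KO-Fasted, 201 and 201 in WT-Refed, and 150 and 220 in KO-Refed. Sdhd stood at 279 and 336 CPM in WT-Fasted, 258 and 243 in KO-Fasted, 269 and 290 in WT-Refed, and 191 and 280 in KO-Refed. Both anchors were lower in both KO than in both WT libraries when fasted, with log2 fold changes of -0.26 (SE 0.21) and -0.30 (SE 0.21) that did not pass and that were 0.12 and 0.089 with scaling by total counts. In the refed contrast they were at -0.12 and -0.25 with all libraries, and without KO-Refed2 Sdhd passed at -0.55 (SE 0.15, adjusted p = 0.0357).

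The leading member of each other complex, by mean per kb over all 8 libraries, overlapped between genotypes in refed liver. Complexes were as assigned by gene name. Ndufa4 stood at 295 and 341 CPM in WT-Fasted, 269 and 256 in KO-Fasted, 310 and 328 in WT-Refed, and 253 and 623 in KO-Refed. Its log2 fold change for the deletion was -0.28 (SE 0.37) when fasted and 0.46 (SE 0.37) when refed. Without KO-Refed2 the latter was -0.34 (SE 0.13, adjusted p = 0.103 by edgeR), so the sign turned with that library. Uqcrq stood at 222 and 228 CPM in WT-Fasted, 213 and 225 in KO-Fasted, 243 and 262 in WT-Refed, and 218 and 667 in KO-Refed. Its values for the deletion were -0.04 (SE 0.43) fasted and 0.81 (SE 0.44) refed on the log2 scale, the latter -0.22 without KO-Refed2.

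Cox4i1 stood at 412 and 455 CPM in WT-Fasted, 410 and 392 in KO-Fasted, 388 and 429 in WT-Refed, and 402 and 977 in KO-Refed. The log2 fold change was -0.11 (SE 0.36) when fasted and 0.76 (SE 0.36) when refed, and the refed value was -0.03 without KO-Refed2. For Atp5g3 the levels were 529 and 603 CPM in WT-Fasted, 473 and 456 in KO-Fasted, 525 and 505 in WT-Refed, and 413 and 849 in KO-Refed. Its log2 fold changes were -0.29 (SE 0.31) and 0.29 (SE 0.31), the latter -0.32 without KO-Refed2. Atp5d, the delta subunit of ATP synthase, was examined by the study as a protein partner of HRD1. The study reported no effect of the deletion on its protein level in refed liver. Atp5d mRNA stood at 268 and 322 CPM in WT-Fasted, 258 and 283 in KO-Fasted, 274 and 270 in WT-Refed, and 268 and 630 in KO-Refed. Its log2 fold changes were -0.13 (SE 0.35) and 0.72 (SE 0.36), the latter -0.03 without KO-Refed2, and no one of these 5 genes passed with all libraries. The fasted values of all 5 were above 0 with scaling by total counts, at 0.10 to 0.35, below the median of 0.36 for all genes.

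Several complex IV subunits and Ndufa4 exist as isoforms that differ between tissues, and the liver forms made up nearly all of their counts. Complex V's c subunit also has several genes, given below. Cox6a1, the isoform of liver and most other tissues, stood at 227 and 256 CPM in WT-Fasted, 233 and 236 in KO-Fasted, 242 and 250 in WT-Refed, and 234 and 575 in KO-Refed. Cox6a2, the isoform known from heart and skeletal muscle (chr7:128205435-128206387 in GRCm38, minus strand), was at 0.02 and 0.05 CPM in WT-Fasted, 0.47 and 0.65 in KO-Fasted, 0.07 and 0 in WT-Refed, and 2.0 and 2.3 in KO-Refed. In counts these were 1, 2, 24, 36, 3, 0, 118 and 105 in the same order. The KO libraries did not overlap the WT libraries in either state, and the 2 KO-Refed libraries had close levels of this gene.

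From the summed counts of each group, Cox6a2 was 15.3 times higher in KO than in WT when fasted (95% exact interval 4.99 to 76.2) and 55.8 times higher when refed (18.8 to 273), intervals that cover counting error only. The edgeR test gave a log2 fold change of 5.72 (SE 0.73, adjusted p = 0.0105) in refed and 3.83 (SE 0.76, adjusted p = 0.0601) in fasted liver. The refed call was lost without either WT-Refed library, at an adjusted p of 0.0604 and 0.0917, and in a fit of the 4 refed samples alone, at 0.0944. With WT at 3 counts in each state, the fitted fold depends on the prior count. Even in KO-Refed2, Cox6a2 stood far below Cox6a1. The 5 striated muscle markers (Myh4, Ckm, Acta1, Mb and Myl1) summed to between 0 and 0.0658 CPM in all libraries, with Myh4 at 0 throughout.

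**Figure D4:**
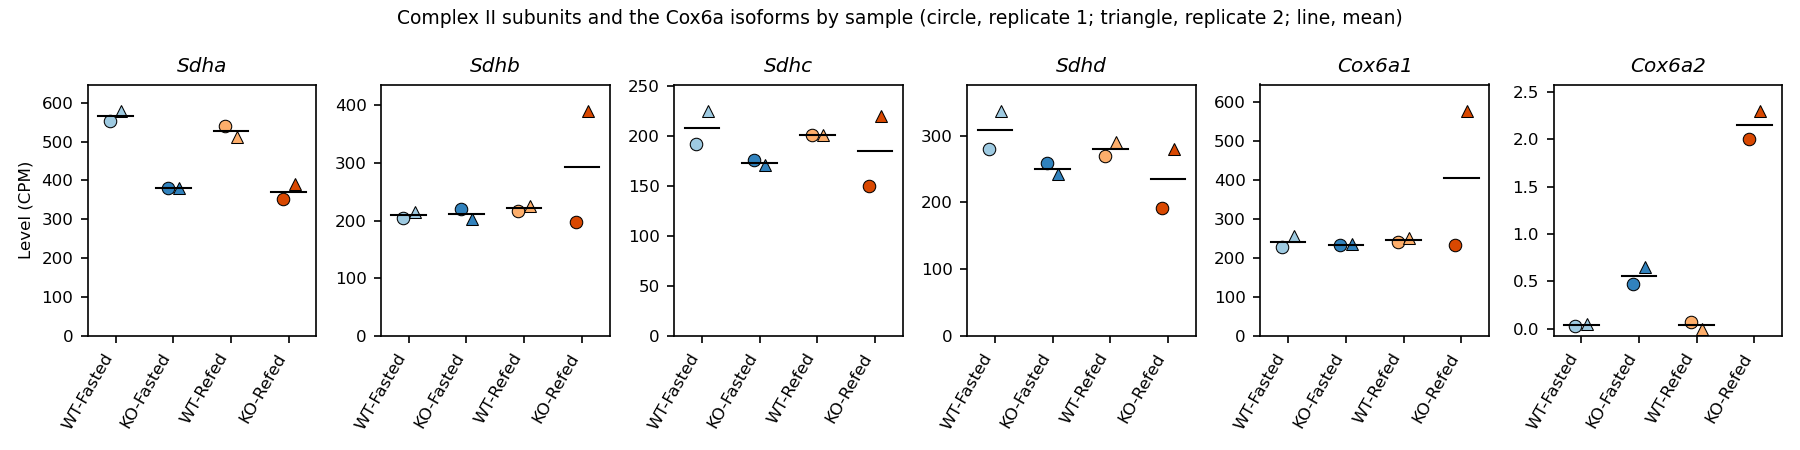
CPM of Sdha, Sdhb, Sdhc, Sdhd, Cox6a1 and Cox6a2 in each of the 8 libraries, 1 panel a gene (circle, replicate 1, triangle, replicate 2, line, mean), with the y axes from 0, or just below it for Cox6a2, and the groups along the x axes. Sdha is between 353 and 389 CPM in the KO libraries and between 512 and 577 CPM in the WT libraries, and Cox6a2 reaches 2.3 CPM.

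In the other complex IV isoform sets the liver forms also made up most of the counts. The rarer forms did not all move with them. Cox6b1 stood at 182 and 207 CPM in WT-Fasted, 184 and 173 in KO-Fasted, 201 and 207 in WT-Refed, and 164 and 426 in KO-Refed. Its partner Cox6b2, known from testis, stood at 1.90 and 1.48 CPM in WT-Fasted, 3.15 and 2.74 in KO-Fasted, 0.89 and 0.68 in WT-Refed, and 1.39 and 4.19 in KO-Refed. The KO libraries of Cox6b2 lay above those of WT in both states, with log2 fold changes of 0.80 (SE 0.49, adjusted p = 0.446) and 1.81 (SE 0.52, adjusted p = 0.0626) by edgeR, the latter 0.81 without KO-Refed2. Cox7a2 stood at 128 and 147 CPM in WT-Fasted, 142 and 132 in KO-Fasted, 148 and 149 in WT-Refed, and 143 and 374 in KO-Refed. Cox7a1, the muscle isoform, ran from 0.24 to 1.01 CPM over all libraries, and was 0.67 and 0.95 in WT-Fasted against 0.37 and 0.29 in KO-Fasted. Cox7a2l, which helps join complexes III and IV into supercomplexes, stood at 48.0 and 55.4 CPM in WT-Refed and at 74.9 and 138 in KO-Refed (log2 fold change 1.04, SE 0.30, adjusted p = 0.0610, and 0.53 without KO-Refed2). Neither KO library of Cox7a2l overlapped the WT-Refed pair, while in the fasted groups, at 58.7 and 77.3 in WT and 84.2 and 75.6 in KO, they overlapped.

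Cox8a stood at 156 to 293 CPM in all libraries, whereas Cox8b and Cox4i2 had at most 4 counts in any library and Cox8c and Cox7b2 had none. Ndufa4l2, a relative of Ndufa4 known from low-oxygen tissue, ran from 0.80 to 2.15 CPM. Among the genes for the c ring, all of which give the same mature protein, Atp5g3 made up most of the listed counts. Atp5g1 stood at 11.0 to 15.6 CPM in 7 libraries and 38.1 in KO-Refed2, and Atp5g2 stayed at 0.34 to 0.96 CPM. Atp5g1 and Atp5g2 have near-identical copies among other annotated genes, so the shares of the c ring genes are uncertain. A count of 0 allows a level of up to 0.0508 to 0.0788 CPM (3 counts), depending on the library.

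Refeeding in WT liver left the subunit genes close to their fasted levels. By edgeR 0 of 80 members were called higher and 0 lower, where 1.20% and 1.41% of all genes were called. At an unadjusted p under 0.05 there were 0 members, against 2339 of all 14328 tested genes. DESeq2 called 0, where it called 3.46% of all genes higher and 4.12% lower, and limma called 0, where it called 1.32% and 1.51%. The median log2 fold change was 0.05 against 0.00 over all genes. Sdha was at -0.10 (SE 0.15), Sdhb at 0.08, Sdhc at -0.05, Sdhd at -0.14, Ndufa4 at 0.01, Uqcrq at 0.17, Cox4i1 at -0.09, Atp5g3 at -0.14 and Atp5d at -0.12 on the log2 scale. Without KO-Refed2 the same contrast called 1 member lower, Cox6b2 (log2 fold change -1.10, SE 0.28, adjusted p = 0.0362), where 8.47% of all genes were called higher and 8.56% lower.

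Refeeding in KO liver gave a median of 0.72 over the members against 0.02 over all genes, with all libraries. By edgeR 0 of 80 were called higher and 0 lower, where 5.43% and 5.05% of all genes were called. At an unadjusted p under 0.05 there were 15 of the 80 members, against 4538 of all 14328 tested genes. DESeq2 called 4 higher (Atp5e, Atp5g1, Cox6a2 and Ndufa2) and 0 lower, where it called 10.7% and 9.68% of all genes, and limma called 0, where it called 4.91% and 5.21%. Sdha was at -0.03 (SE 0.15), Sdhb at 0.47, Sdhc at 0.09 and Sdhd at -0.09, while Ndufa4 was at 0.74, Uqcrq at 1.01, Cox4i1 at 0.78, Atp5g3 at 0.44 and Atp5d at 0.73. The median over complex II was 0.03, against 0.76 over I, 0.60 over III, 0.73 over IV and 0.44 over V. Without KO-Refed2 the median was -0.06, with 0 members higher and 1 lower, where 10.7% and 9.0% of all genes were called. That member was Atp5sl (log2 fold change -0.94, SE 0.13, adjusted p = 0.00398), a complex I assembly factor (Dmac2) despite its name, which stood at 42.0 and 38.8 CPM in KO-Fasted, 21.1 in the library labelled KO-Refed1 and 32.1 in KO-Refed2. Without the library labelled KO-Refed1, 67 members were called higher and 0 lower, where 24.8% and 26.6% of all genes were called, and the median was 1.20.

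The interaction asked whether the response to refeeding differed between genotypes. Over the members its median was 0.67 against 0.03 over all genes. By edgeR 0 members were called higher and 0 lower, where 0.00% and 0.00% of all genes were called. At an unadjusted p under 0.05 there were 0 members, against 1209 of all 14328 tested genes. DESeq2 called 0 members, where it called 0.398% and 0.335% of all genes, and limma called 0 members and 0 genes. For Cox6a2 the interaction was 1.89 (SE 1.32, adjusted p = 0.648), so the larger fold change in refed liver was not shown to differ from the fasted one. For Sdha it was 0.07 (SE 0.21). The median was -0.10 without KO-Refed2, with 0 members called where 0.458% of all genes were called higher and 0.232% lower. It was 1.17 without the library labelled KO-Refed1, with 64 members called higher and 0 lower where 15.4% and 18.0% of all genes were called.

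Genes that work beside the subunits were read from fixed lists. Of the further nuclear subunits Ndufab1, Cyc1 and Usmg5 and the ATP synthase inhibitor Atpif1, which the symbol rule does not reach, 0 of 4 were called in any contrast by edgeR with all libraries. Without KO-Refed2 their median was -0.22 in fasted KO against WT and 0.21 by refeeding in WT. Of 14 tested genes for electron carriers and coenzyme Q synthesis, 1 was called higher and 1 lower in refed KO against WT, a share near the 7.09% and 4.84% of all genes. These were Adck4, a kinase-like coenzyme Q protein at 17.2 and 17.2 CPM in WT-Refed and 38.4 and 39.8 in KO-Refed (log2 fold change 1.18, SE 0.15, adjusted p = 0.0110), and its relative Adck3 at 251 and 269 against 128 and 120 CPM (-1.07, SE 0.19, adjusted p = 0.0213). Both genes had close levels in the 2 KO-Refed libraries, and without KO-Refed2 the values were 1.15 and -1.03, again called. The same 2 were called in the same directions by refeeding in KO liver with and without KO-Refed2. In the fit without it the median of the 14 was -0.02 in fasted and -0.17 in refed KO against WT.

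Among assembly factors, edgeR with all libraries called none in the fasted contrast and none by refeeding in WT. In refed KO against WT it called none of 9 tested for complex I, 3 for complex III and 3 for complex V, 1 of 2 higher for complex II and 1 of 11 lower for complex IV, where 7.09% of all genes were called higher and 4.84% lower. Without KO-Refed2 the fasted contrast had 3 lower for complex I, 1 for II, 1 for III, 2 for IV and 2 for V, and 1 higher for IV, where 11.6% of all genes were called lower and 9.66% higher. In that fit refeeding in WT gave medians of 0.14 for the factors of complex I, 0.26 for II, 0.52 for III, 0.15 for IV and 0.02 for V. Refed KO against WT gave medians of -0.19, 0.12, -0.01, -0.12 and 0.04 in the same order.

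Sdhaf1, which helps insert iron-sulfur clusters into succinate dehydrogenase, stood at 21.7 and 20.3 CPM in WT-Refed and at 30.2 and 55.2 in KO-Refed (log2 fold change 1.03, SE 0.27, adjusted p = 0.0499). Without KO-Refed2 its value was 0.52 (SE 0.10, adjusted p = 0.0144), and the correction for transcript length left 0 of the 2 complex II factors called. Taco1, a translational activator of the mitochondrial Cox1 message, fell from 27.9 and 24.8 to 17.5 and 15.7 CPM (-0.67, SE 0.16, adjusted p = 0.0389), and was at 24.2 and 23.3 CPM in WT-Fasted against 13.3 and 13.3 in KO-Fasted. Without KO-Refed2 it passed in both states, at -0.60 refed and -0.84 fasted. Refeeding in KO liver called Sdhaf1, Bcs1l and Lyrm7 of complex III, Cox18 of complex IV and Tmem70 of complex V higher, with log2 fold changes of 1.28, 0.95, 1.11, 0.82 and 0.69. They were 1 of 2 tested factors for complex II, 2 of 3 for III, 1 of 11 for IV and 1 of 3 for V. Of 9 for complex I 0 were called, where 5.43% of all genes were called higher. Without KO-Refed2 the same fold changes were 0.78, 0.79, 1.14, 0.74 and 0.53.

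Of 13 regulators of mitochondrial genes, edgeR with all libraries called Myc alone in refed KO against WT. Of all genes that fit called 7.09% higher and 4.84% lower. Myc stood at 8.64 and 5.93 CPM in WT-Refed and 32.1 and 17.7 in KO-Refed (log2 fold change 1.77, adjusted p = 0.0379 by edgeR). Without KO-Refed2 its log2 fold change was 2.13. Refeeding in KO liver lowered Ppargc1a by a log2 fold change of -2.73 and Ppargc1b by -1.39, both coactivators of respiratory genes, where 5.05% of all genes were called lower. Without KO-Refed2 these were -2.97 and -1.20. Refeeding in WT called 0 of the 13 with all libraries, where 1.20% of all genes were called higher and 1.41% lower. The median over the 13 was -0.07 by refeeding in WT and -0.17 in KO, and -0.07 and -0.02 without KO-Refed2. The interaction called 0 of the 13 with all libraries, where 0.00% of all genes were called. The fall in Ppargc1a and Ppargc1b was thus not shown to differ between genotypes.

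Ribosomal protein genes served as a comparison because they too are short. The 80 tested cytosolic ribosomal protein genes, of median length 776 bases, had a median log2 fold change of 0.48 in fasted and 1.18 in refed KO against WT. By edgeR 0 were called in fasted liver, where 0.921% of all genes were called higher, and 37 were called higher in refed liver, where 7.09% were. Without KO-Refed2 the fasted contrast called 36 of 81 higher and 1 lower and the refed contrast 48 higher, where 9.66% and 11.9% of all genes were called higher. The refed median of these genes was then 0.59, whereas that of the subunit genes was -0.28. The 76 mitochondrial ribosomal protein genes, of median length 1221 bases, had medians of -0.11 and 0.50 in fasted and refed KO against WT. In these contrasts and by refeeding in WT 0 were called. Of all genes 0.921%, 7.09% and 1.20% were called higher there and 0.433%, 4.84% and 1.41% lower. Refeeding in KO called 9 of the 76 higher, where 5.43% of all genes were called higher. Without KO-Refed2 their median was -0.03 in refed and -0.11 in fasted KO against WT. In that fit refeeding called 14 higher in WT, where 8.47% of all genes were called higher, and 14 higher in KO, where 10.7% were.

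Some members are read with less certainty. Of the 85, 18 share a stretch of at least 100 bases at 98% identity or more with another annotated gene, and their median level was 38.3 CPM per kb against 149 for the 67 others. Ndufs5 was listed at 0 in every library, while BC002163, with near-identical sequence, was listed at 15.2 to 18.5 CPM in 7 libraries and 42.2 in KO-Refed2. Cox7c at 1.61 to 5.04 CPM, Atp5l at 0.90 to 2.02 and Ndufb4 at 5.18 to 15.9 CPM are further low members with such copies. Atp5g1 and Atp5g2 are low members with copies too. Cox7a2l and Uqcrb, called above in some fits, also have such copies, so the levels of all these genes are uncertain. The symbol rule also took in Cox4nb (Emc8), a protein of the endoplasmic reticulum membrane, and Atp5s, which is named after coupling factor B, while 5 members did not pass the filter: Ndufs5, Cox4i2, Cox7b2, Cox8b and Cox8c.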

How the data were processed

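The deposited files hold raw read counts per gene symbol, made by the authors from hepatic RNA sequenced on a NextSeq 500, 1 lane per sample. The study's methods name ERANGE for counting and limma for testing, whereas the submitters' processing notes name cutadapt, STAR, HTSeq, DESeq2 and mm10; versions, annotation and strand setting are not given in the sources used here. From these counts, the 8 samples were fitted together with edgeR 4.0.16 in R 4.3.3 (filterByExpr with a minimum count of 10, TMM scaling, glmQLFit and glmQLFTest, 1 coefficient per group, 5 contrasts), with Benjamini-Hochberg adjustment over all tested genes and a threshold of 0.05. Total counts ran from 40210576 to 49117080 per sample. Alternatives used DESeq2 1.42.0, limma 3.58.1, other scalings and filters, a length correction (loess, span 0.5), a replicate block and samples left out. Scripts were tested on simulated data with 200 changed genes. Lengths and positions came from GENCODE (GRCm38), by symbol or synonym for 97.9% of genes, and copies from BLAST 2.17.0. Genes named with values were members called with non-overlapping samples, the most abundant member per length of each complex, the Sdh genes, Atp5d, tissue isoforms, the extremes of the KO-Refed ratio and low members; genes called only in an alternative were named after their values were seen. The members and lists were chosen with earlier results of these data known. A single-sample level has a floor of 3 counts.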

Additional observations from a re-analysis of the deposited data

How the results depend on the processing

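Of 839 fold changes of the named genes recomputed under alternatives, 721 kept their direction and side of the threshold, 38 passed it newly, 3 no longer passed and 77 changed sign. Of 252 recomputed counts and medians, 206 moved by less than 1.5 times or the spread between samples. Where a value below changed, the cause was not tested beyond what the setting itself alters. Values are log2 fold changes and numbers of members called. With RLE size factors, fasted KO against WT had Sdhb at -0.0065. With RLE size factors, refeeding in WT had Ndufa4 at -0.0043. With DESeq2, fasted KO against WT had 1 member higher, 1 member lower and Sdhb at -0.0065. With DESeq2, refed KO against WT had 3 members higher and 2 members lower. With DESeq2, refeeding in WT had Ndufa4 at -0.0043. With DESeq2, refeeding in KO had 4 members higher. With limma-trend, refeeding in WT had Cox6a2 at -0.33. Without the filter on low counts, fasted KO against WT had 1 member higher. Without the filter on low counts, refed KO against WT had 2 members higher. Without the filter on low counts, refeeding in KO had 1 member higher. With the length correction, fasted KO against WT had 1 member higher, a member median of -0.34 and Sdhb at -0.12. With the length correction, refed KO against WT had 3 members lower, Ndufa4 at -0.22, Atp5g3 at -0.31 and Sdhb at -0.041. With the length correction, refeeding in WT had a member median of -0.070, Cox6a2 at -0.085, Ndufa4 at -0.17 and Uqcrq at -0.0035. With the length correction, refeeding in KO had 1 member lower, Atp5g3 at -0.13 and Sdha at 0.077. With the length correction, the interaction had Sdhd at -0.20. With the block and the length correction, fasted KO against WT had a member median of -0.32 and Sdhb at -0.12. With the block and the length correction, refed KO against WT had 2 members higher, 2 members lower, a member median of -0.14, Ndufa4 at -0.23, Atp5g3 at -0.32 and Sdhb at -0.050. With the block and the length correction, refeeding in WT had a member median of -0.065, Cox6a2 at -0.10, Ndufa4 at -0.17 and Uqcrq at -0.0032. With the block and the length correction, refeeding in KO had 1 member lower, Atp5g3 at -0.14 and Sdha at 0.072. With the block and the length correction, the interaction had Sdhd at -0.20. With total-count scaling, an alternative chosen after seeing the data, fasted KO against WT had 1 member higher, a member median of 0.20, Ndufa4 at 0.11, Sdhd at 0.089, Uqcrq at 0.35, Cox4i1 at 0.27, Atp5g3 at 0.10, Sdhc at 0.12 and Atp5d at 0.26. With total-count scaling, refed KO against WT had 3 members higher and Sdhc at 0.072. With total-count scaling, refeeding in WT had a member median of 0.20, Sdhd at 0.012, Cox4i1 at 0.062, Atp5g3 at 0.014, Sdha at 0.048, Sdhc at 0.10 and Atp5d at 0.034. With total-count scaling, the interaction had Sdhd at -0.14, Sdha at -0.10 and Sdhc at -0.049. With the 4 samples of the contrast only, fasted KO against WT had 1 member higher and 1 member lower. With the 4 samples of the contrast only, refed KO against WT had 0 members higher.

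The sample numbers were not used as pairs. The correlation of same-numbered deviations over pairs of groups was 0.0161 to 0.179 over all genes and -0.57 to 0.43 over the members. With 2 samples a group these values cannot decide whether the samples were paired. The replicate block gave 0 members higher and 0 lower in fasted KO against WT, 1 and 0 in refed KO against WT, and 0 and 0 in the other contrasts, as without it.

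Leaving out each library in turn gave these ranges, where the lowest values in refed KO against WT, refeeding in KO and the interaction were mostly those without KO-Refed2 and the highest those without the library labelled KO-Refed1. Fasted KO against WT had 0 to 1 member higher, 0 to 4 members lower, a member median of -0.26 to -0.044, Sdhb at -0.056 to 0.081, Uqcrq at -0.081 to 0.012 and Atp5d at -0.26 to 0.042. Refed KO against WT had 0 to 65 members higher, 0 to 16 members lower, a member median of -0.28 to 1.02, Sdhc at -0.43 to 0.13, Ndufa4 at -0.34 to 0.96, Uqcrq at -0.22 to 1.39, Cox4i1 at -0.028 to 1.25, Atp5g3 at -0.32 to 0.72, Sdhb at -0.17 to 0.81 and Atp5d at -0.028 to 1.20. Refeeding in WT had 0 to 1 member lower, a member median of -0.021 to 0.15, Cox6a2 at -3.91 to 0.96, Ndufa4 at -0.094 to 0.14, Sdhd at -0.27 to 0.031, Cox4i1 at -0.16 to 0.016, Sdhc at -0.16 to 0.10 and Atp5d at -0.24 to 0.051. Refeeding in KO had 0 to 67 members higher, 0 to 1 member lower, a member median of -0.063 to 1.20, Sdhd at -0.39 to 0.16, Sdha at -0.10 to 0.035, Ndufa4 at -0.053 to 1.24, Uqcrq at -0.013 to 1.60, Atp5g3 at -0.17 to 0.87, Sdhb at -0.10 to 0.88, Sdhc at -0.21 to 0.34 and Atp5d at -0.014 to 1.22. The interaction had 0 to 64 members higher, a member median of -0.10 to 1.17, Sdhd at -0.25 to 0.30, Ndufa4 at -0.059 to 1.24, Uqcrq at -0.18 to 1.43, Atp5g3 at -0.033 to 1.0, Sdha at -0.0018 to 0.14, Sdhb at -0.18 to 0.80 and Sdhc at -0.16 to 0.39. The 3 calls lost were those of Cox6a2 in refed KO against WT, without WT-Refed1, without WT-Refed2 and with the 4 refed samples only, where its counts in WT were 3 and 0.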

Other observations

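With 2 samples a group, the joint fit has 4 residual degrees of freedom, and the standard errors of most named subunit genes were larger with KO-Refed2 than without it. The members' median in refed KO against WT changed sign between fits that hold only one or only the other KO library, so no direction is given for the subunit genes as a whole in refed liver. Sdha was lower in all 4 KO libraries than in any WT library. The mitochondrially encoded subunits were not analysed here, and nothing measured protein, complex assembly or respiration. Levels of members with near-identical copies are uncertain.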
